A study of Mus musculus with 20 samples.

Results

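The 41 homologous recombination and DNA repair genes described here were taken by symbol out of 55406 genes counted in mouse tumours. All 41 passed the filter on low counts, as did 18144 genes in all. By role they were 5 BRCA complex genes and mediators, 5 paralog genes (Rad51b, Rad51c, Rad51d, Xrcc2 and Xrcc3), 3 annealing and remodelling genes, 7 genes of end resection and dissolution, 4 checkpoint kinases, 8 genes of the Fanconi anaemia core complex, the 2 genes of the ID2 complex, Polq, and 6 genes of base excision and single-strand break repair.

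Homologous recombination mends a double-strand break by cutting back its ends, invading with the exposed strand and copying the intact sister chromatid. BRCA1 acts at end resection and the steps before strand invasion, and cells that lack it depend more on other routes, among them end joining by polymerase theta and the repair of single-strand breaks. Olaparib blocks and traps PARP enzymes at such breaks, and cells without BRCA1 are sensitive to it. Many genes of these pathways are transcribed mostly in late G1 and S phase, when the sister chromatid is being made.

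RNA of 20 tumours was sequenced, each from its own mouse. All of them, untreated ones included, grew from luciferase-expressing derivatives of ID8, a mouse ovarian surface epithelial line, of genotype Trp53-/-Brca1-/-, placed in the peritoneal cavity of C57/BL6 females. The PARPi group (n = 3) received oral olaparib at 40 mg/kg/day. The ICB group (n = 3) received immune checkpoint blockade with 100 µg of anti-CTLA-4 and 200 µg of anti-PD-L1, the PARPi+ICB group (n = 3) received olaparib and both antibodies, the PARPi+aVEGFA group (n = 4) received olaparib and 20 µg of anti-VEGFA, the full combination (n = 4) received all of these, and control mice (n = 3) were untreated. Antibodies were given intraperitoneally 2 times a week. The host's own cells keep both deleted genes, and no tumour with intact Brca1 was analysed here.

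Total counts per library ran from 26863893 to 34663888. Whole-gene counts do not test the deletions, because host cells and remaining exons also give reads: Brca1 had 339 to 751 counts and Trp53 50.6 to 71.7 CPM over the 20 libraries. CPM, the usual depth-scaled unit, is here a gene's count relative to the effective library size. RNA of 9 epithelial and mesothelial markers summed to 2032 to 3040 CPM, and none of the 9 was at 0 in any library. Pancreatic acinar RNA exceeded 100 summed CPM in 4 libraries, namely ICB replicate 3, PARPi+aVEGFA replicates 1 and 4 and full combination replicate 2, at 174, 841, 867 and 4457 CPM. Calls were also made without these 4 libraries.

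The members spanned a wide range of abundance. In CPM per kilobase of exon, averaged over 20 libraries, the base excision endonuclease gene Apex1 was highest at 36.7 ± 2.13 (SD, n = 20), and Lig1, the replicative DNA ligase gene, followed at 26.2 ± 2.38. Rad50, a subunit of the MRN complex that senses broken ends, stood at 14.1 ± 1.29, and its partner Nbn at 10.4 ± 0.944. Of the 41 members, 13 lay at 5 or more, 25 from 1 to under 5, and 3 under 1. The last were Rad51c (0.814 ± 0.212), Polq (0.755 ± 0.160) and Fancf (0.257 ± 0.0905). In this order 37 of the 40 neighbouring pairs overlapped in their range over libraries. Levels per kilobase on the deposited RPKM scale gave another order, because the length implied by those values was close to the gene span with introns: for Rad51b it was 136 times the exon length, and its rank was 41 there against 18 per kilobase of exon. Fancf, a gene with 5 to 23 counts per library, was the only member with fewer than 64 counts in any library.

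Variation among tumours also differed by member. The highest library exceeded the lowest by a factor of 4.73 for Fancf, 2.95 for Fancb, 2.57 for Rad51c and 2.31 for Brca1. The factor was 1.21 for Xrcc1, the scaffold of single-strand break repair, and 1.22 for Rad51d. The map of the 41 genes over the 20 tumours shows this as rows of strong and of faint colour. Counts per library were 5 to 23 for Fancf, 80 to 229 for Fancb and 64 to 151 for Rad51c, against 1068 to 1656 for Xrcc1. The part of counting noise in the factors above was not tested.

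**Figure D1:**
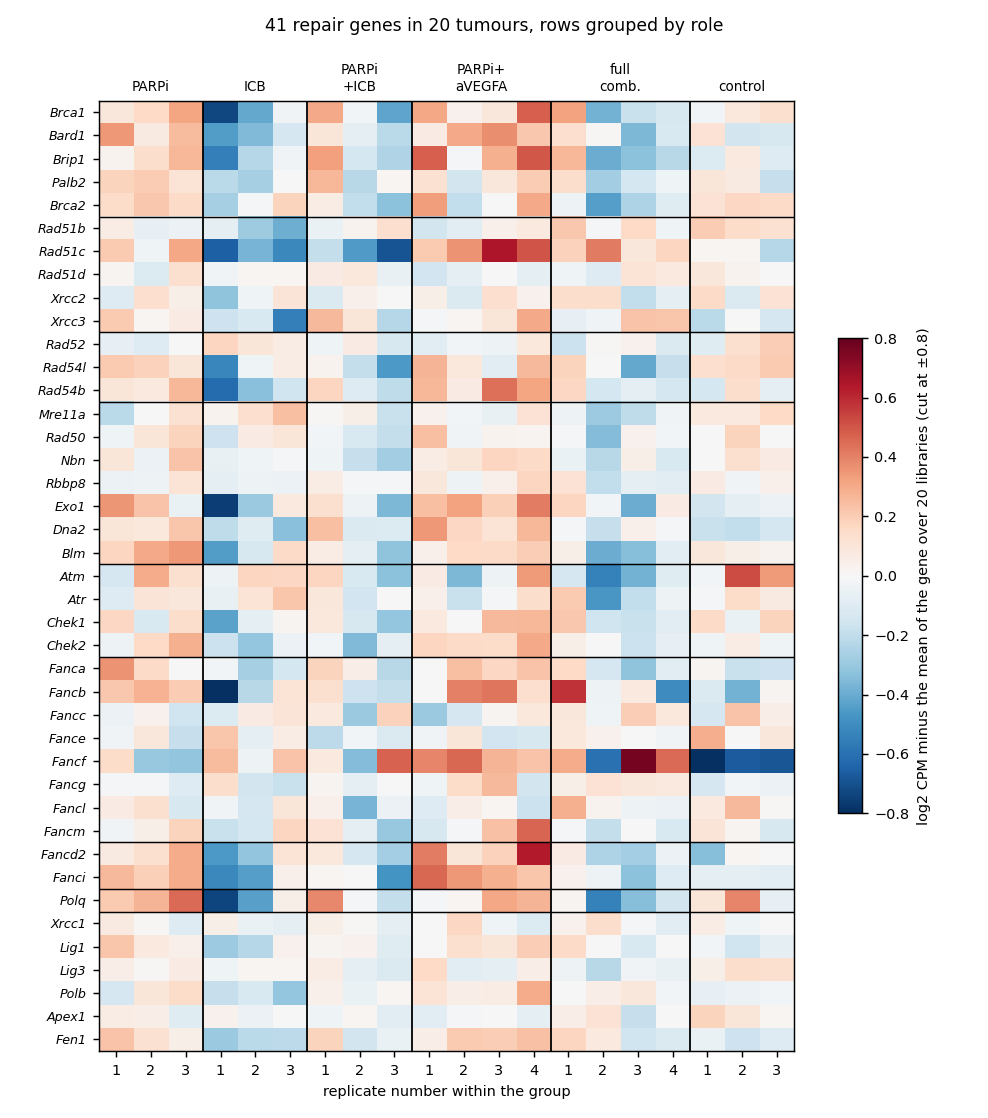
Each row is 1 of 41 repair genes, in the order of roles given in the text, and each column 1 of 20 tumours, by group and replicate number with control tumours at the right. Colour is log2 CPM minus the mean of that gene over the 20 libraries, and lines separate groups and roles. Exo1, Fancb, Polq and Rad51c vary widely, with low values in ICB replicate 1, while Xrcc1 and Rad51d vary little.

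The comparison of tumours with and without ICB, averaged over 3 backgrounds (none, PARPi, and PARPi with anti-VEGFA), asked what checkpoint blockade did to repair gene RNA. With ICB, 11 of 41 members fell (26.8%) and none rose, where 14.1% of all genes tested were called, 7.26% higher and 6.88% lower. A gene was called at a Benjamini-Hochberg adjusted p under 0.05 in edgeR's quasi-likelihood test. Over all 41, 36 log2 fold changes were negative with a median of -0.14, against a median of 0.005 over all genes tested. In bulk tumour RNA, fewer cells of a type and less RNA per cell cannot be told apart.
The 11 came from 7 of the 9 roles. They were Bard1 and Brca2 of the 5 BRCA complex genes, Rad51c of the 5 paralog genes, Rad54l and Rad54b of the 3 annealing and remodelling genes, Nbn and Blm of the 7 resection and dissolution genes, Chek2 of the 4 checkpoint kinases, Fancd2 and Fanci, which make up the ID2 complex, and Polq. None of the 8 core complex genes and none of the 6 base excision genes passed the test; at unadjusted p under 0.05, 1 of the 8 was lower and 1 higher, and 3 of the 6 were lower.

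Rad51c, a paralog gene that acts in strand invasion, had the largest change of the 11 members called. It had 2.17, 2.66 and 2.40 CPM in ICB tumours, against 3.49, 3.49 and 2.94 CPM in control tumours. With olaparib it had 3.02, 2.50 and 2.12 CPM in PARPi+ICB tumours, against 4.00, 3.37 and 4.29 CPM in PARPi tumours. With anti-VEGFA as well it had 3.93, 4.64, 3.69 and 3.90 CPM in the full combination, against 4.01, 4.45, 5.43 and 4.91 CPM in PARPi+aVEGFA tumours. The groups were apart in the first pair and the next, and overlapped where anti-VEGFA was given. The averaged log2 fold change was -0.43 ± 0.09 (SE; adjusted p = 0.00503 by edgeR).

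Fanci and Fancd2 encode the paired clamp that is ubiquitinated at stalled forks and interstrand crosslinks. Fanci had a lowest, median and highest value of 7.17, 9.77 and 10.6 CPM in the 10 tumours with ICB, against 9.69, 12.1 and 14.1 CPM in the 10 without, a change of -0.34 ± 0.08 (adjusted p = 0.00926 by edgeR). Fancd2 had 11.4, 13.8 and 17.0 CPM with ICB, against 12.4, 17.0 and 24.5 CPM without, a change of -0.28 ± 0.09 (adjusted p = 0.0438 by edgeR). Both sets of 10 overlapped. Polq, the polymerase of theta-mediated end joining, had 4.28, 6.35 and 9.33 CPM with ICB, against 6.81, 8.45 and 9.82 CPM without, a change of -0.37 ± 0.11 (adjusted p = 0.0306 by edgeR). The median with ICB lay below the lowest library without it.

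Among the BRCA complex genes, Bard1, the obligate partner of BRCA1 in its ubiquitin ligase, had 6.92, 8.62 and 10.4 CPM with ICB, against 8.53, 10.6 and 12.3 CPM without, a change of -0.29 ± 0.07 (adjusted p = 0.0163 by edgeR). Brca2, which acts on single-stranded DNA before strand invasion, had 13.6, 16.7 and 20.9 CPM with ICB, against 16.1, 20.6 and 23.3 CPM without, a change of -0.27 ± 0.08 (adjusted p = 0.0308 by edgeR). Without the 4 libraries with acinar RNA, Brca2 and Rad54l were no longer called and the count was 9. Leaving out ICB replicate 1 or PARPi+ICB replicate 3 gave 7 calls, and leaving out PARPi+ICB replicate 1 gave 17. Brca1 itself did not pass the test. It had 10.7, 13.3 and 17.4 CPM in ICB tumours, against 17.4, 18.7 and 19.3 CPM in control tumours. It had 21.8, 17.4 and 13.2 CPM in PARPi+ICB tumours, against 18.8, 19.7 and 22.0 CPM in PARPi tumours, and 22.1, 13.6, 15.6 and 16.1 CPM in the full combination, against 21.9, 18.1, 18.8 and 24.6 CPM in PARPi+aVEGFA tumours. Its averaged change was -0.31 ± 0.11 (adjusted p = 0.0624 by edgeR), and it was called in none of the 13 comparisons.

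The translocases Rad54l and Rad54b, which remodel chromatin and joint molecules during strand invasion, changed by -0.30 ± 0.09 and -0.28 ± 0.07. Rad54l had 12.4, 16.5 and 20.2 CPM with ICB, against 16.8, 20.0 and 21.5 CPM without. Rad54b had 7.36, 10.2 and 12.7 CPM with ICB, against 10.2, 12.3 and 15.4 CPM without. It shares its strand with the overlapping gene Fsbp, so reads in the overlap cannot be assigned to Rad54b with certainty. Blm, a helicase that dissolves crossed strands, changed by -0.29 ± 0.08, with 13.0, 16.5 and 19.8 CPM with ICB, against 18.1, 19.8 and 22.6 CPM without. Chek2, a kinase activated by ATM, changed by -0.23 ± 0.06, with 13.1, 15.9 and 17.3 CPM with ICB, against 16.2, 18.6 and 20.7 CPM without. Nbn had the smallest change of the 11, -0.19 ± 0.05, with 21.6, 25.2 and 27.1 CPM with ICB, against 25.4, 28.1 and 30.7 CPM without. The 5 adjusted p-values by edgeR lay between 0.0115 (Nbn) and 0.0295 (Rad54l), and each pair of sets overlapped.

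**Figure D2:**
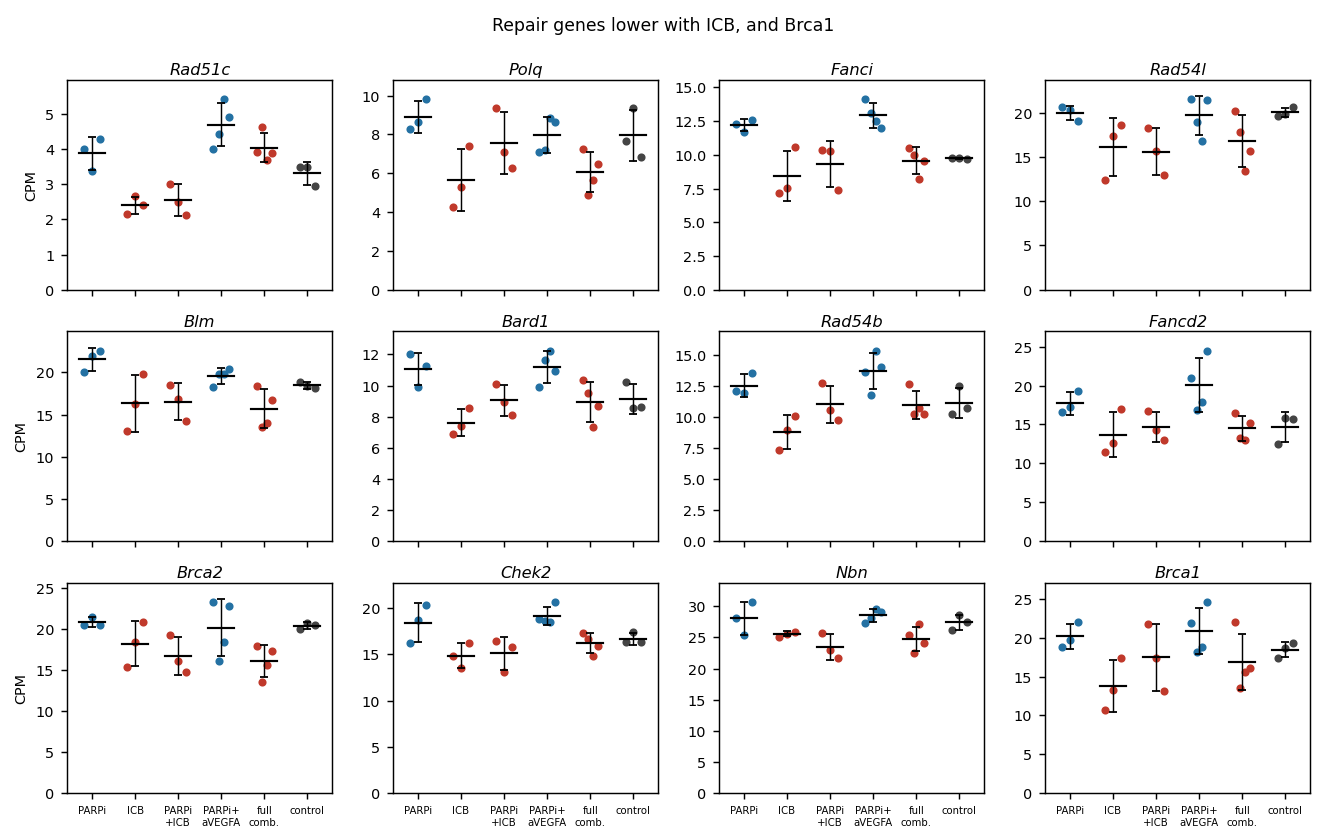
Panels show CPM in each tumour for the 11 repair genes called lower with ICB, in order of log2 fold change, and for Brca1, with groups along the horizontal axis and control at the right. Points are tumours, coloured red with ICB, blue with olaparib and no ICB and grey for control; bars are group means with SD. In Rad51c the ICB and PARPi+ICB tumours lie at 2.12 to 3.02 CPM, against 3.37 to 4.29 CPM in PARPi tumours.

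The 3 ICB comparisons use separate libraries and can be set side by side. In 28 of 41 members (68.3%) the log2 fold change was negative in all 3, a pattern found in 23.5% of all genes tested, and it was positive in all 3 for Fancg alone (2.44%), against 23.0% of all genes. Single steps gave few calls. ICB against control called 1 member, Rad51b, where 2.2% of genes were called, 1.23% higher and 0.976% lower. PARPi+ICB against PARPi called 0 members by edgeR and by limma and 1 by DESeq2, where 1.26% of genes were called, with 8 lower at unadjusted p under 0.05 and 34 of 41 negative. The full combination against PARPi+aVEGFA likewise called 0 members by edgeR and by limma and 1 by DESeq2, where 0.0882% were called, with 13 lower at unadjusted p under 0.05 and 33 of 41 negative. The difference between steps was tested for every gene in 3 comparisons of steps, added after the data were seen, and edgeR called no member in any of them. At unadjusted p under 0.05 there were 1, 0 and 2 members, and the smallest adjusted p was 0.274, for Rad51b; these differences called 0%, 0% and 0.00551% of all genes.
Rad51b, the paralog partner of RAD51C, had 10.5, 9.10 and 8.46 CPM in ICB tumours, against 12.8, 12.3 and 12.1 CPM in control tumours. The groups did not overlap, and the change was -0.41 ± 0.10 (adjusted p = 0.0414 by edgeR). It was 0.06 ± 0.10 when ICB was added to PARPi and 0.11 ± 0.09 when it was added to PARPi+aVEGFA, neither of which passed the test. The Rad51b call was lost under 5 of the alternative settings, DESeq2's Wald test not among them, and on leaving out any control library or ICB replicate 2 or 3.

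**Figure D3:**
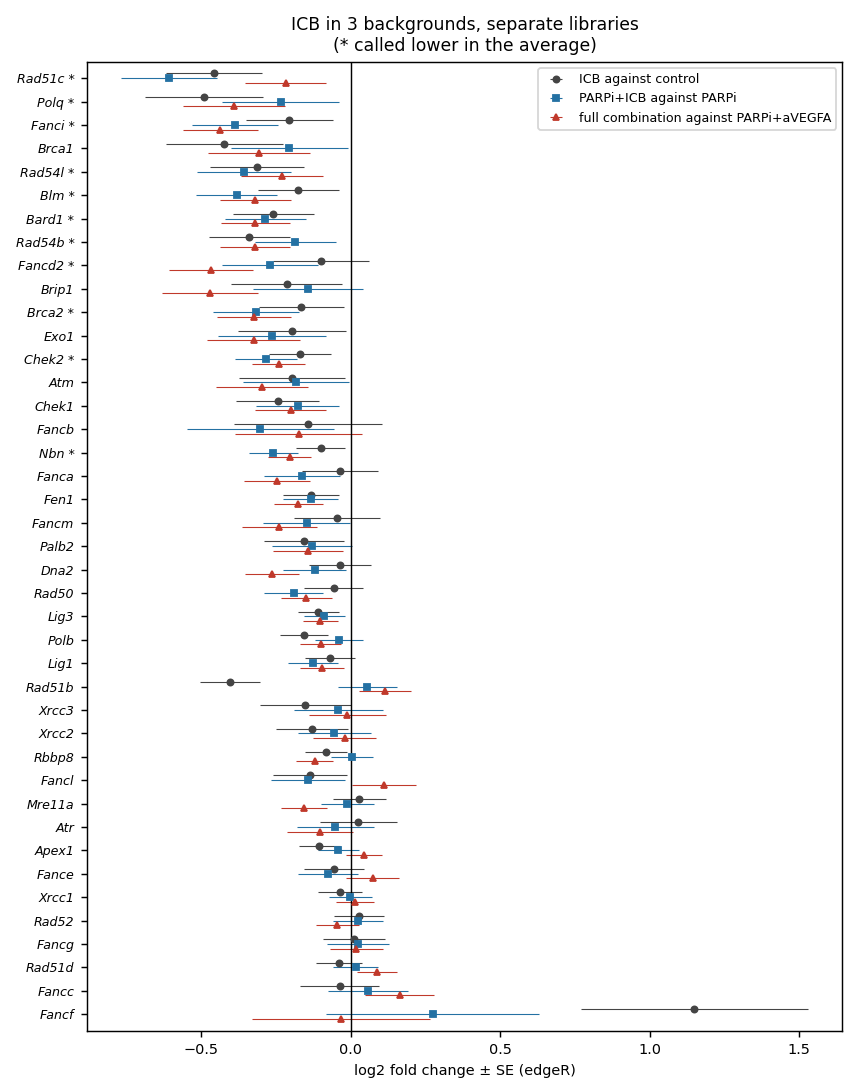
Each row is 1 of 41 repair genes, ordered by the averaged change with the most negative at the top, and the horizontal axis is the log2 fold change with SE. Points are ICB against control, PARPi+ICB against PARPi, and the full combination against PARPi+aVEGFA; an asterisk marks the 11 genes called lower in the average. For 28 genes all 3 points lie below 0.

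Replication genes moved with the same libraries. Of 28 replication and proliferation genes, 21 fell with ICB and none rose, with a median of -0.30; Mki67, a marker of cycling cells, changed by -0.40 ± 0.10, and Mcm5, of the replicative helicase, by -0.41 ± 0.08 (adjusted p = 0.0123 and 0.00430 by edgeR). Their summed level was 1257 to 1830 CPM in ICB tumours against 1865 to 1907 in control tumours, 1615 to 2062 in PARPi+ICB against 2097 to 2203 in PARPi tumours, and 1497 to 2088 in the full combination against 2096 to 2243 in PARPi+aVEGFA tumours. The 3 pairs of ranges did not overlap. Beyond group means, deviations of each member from its group mean were correlated with those of the mean log2 CPM of the 28 genes over 20 libraries, which share depth and tumour make-up. Pearson's r was 0.89 for the exonuclease gene Exo1, 0.86 for Bard1 and 0.85 for Lig1, and lowest at -0.38 for Rad51b and -0.35 for Rad52, an annealing factor. Its median was 0.59 over the 11 members called lower, of which Nbn was lowest at 0.15, and 0.34 over the other 30. It was over 0.50 for 8 of the 11 and for 8 of the other 30, among them Exo1 and Lig1, which were not called. Between pairs of members the median r was 0.50 among the 11 and 0.11 among the other 30.
Immune RNA moved the other way. All 10 T cell markers rose with ICB, with sums of 90.7 to 113 CPM in ICB tumours against 54.1 to 73.9 in control tumours, 115 to 195 in PARPi+ICB against 84.1 to 110 in PARPi tumours, and 144 to 225 in the full combination against 108 to 164 in PARPi+aVEGFA tumours, and none of the 10 was at 0 in any library. Epithelial and mesothelial markers had 2 of 9 lower and none higher. Summed, they had 2363 to 2597 CPM in ICB tumours against 2695 to 3040 CPM in control tumours. The sums were 2114 to 2362 CPM in PARPi+ICB against 2416 to 2453 CPM in PARPi tumours. In the full combination they were 2111 to 2461 CPM against 2032 to 2357 CPM in PARPi+aVEGFA tumours, and only these ranges overlapped. Rn7sk, Lars2 and Mir6236 were 3 RNAs used as signs of library quality. They summed to 60.6 to 79.7 CPM in ICB tumours against 150 to 154 CPM in control tumours. Their sums were 61.6 to 82.0 CPM in PARPi+ICB against 67.1 to 127 CPM in PARPi tumours. They were 55.5 to 153 CPM in the full combination against 46.5 to 62.3 CPM in PARPi+aVEGFA tumours. These 3 pairs did not move in 1 direction, and none of the 3 RNAs passed the test in the average by edgeR, with 1 lower at unadjusted p under 0.05. Plasma cell markers rose in 7 of 8 and macrophage markers in 6 of 8. The part of these RNAs in the changes of the repair genes was not tested.

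**Figure D4:**
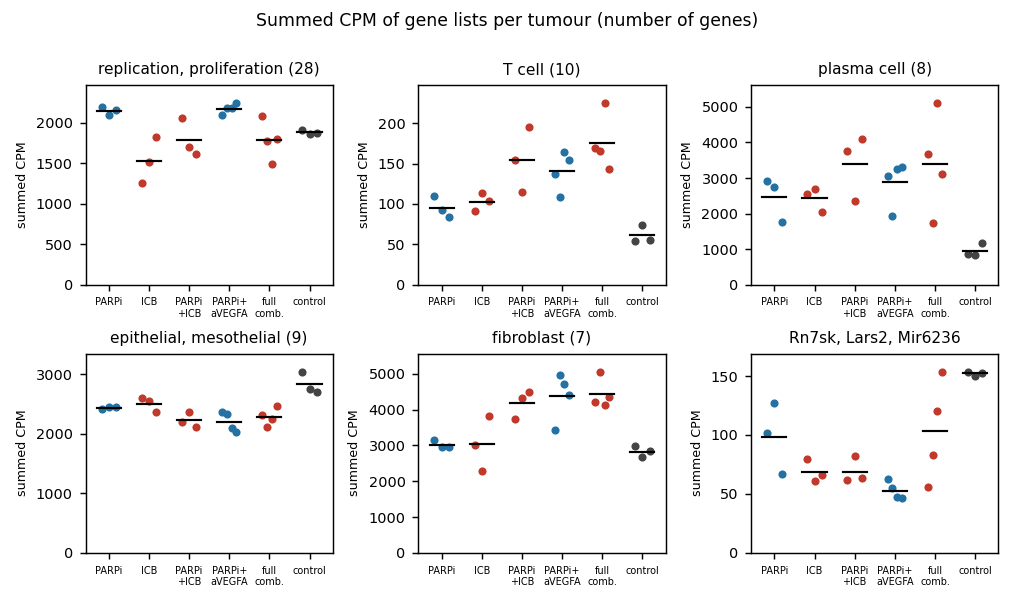
Panels show the summed CPM of 6 gene lists in each of 20 tumours by group, with control at the right; points are tumours, red with ICB, blue with olaparib and no ICB and grey for control, and bars are means. The sums of 28 replication genes in ICB tumours (1257 to 1830 CPM) lie under those of control tumours (1865 to 1907 CPM), and T cell sums lie above them.

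Repair genes outside the 41 were counted in the same comparison. With ICB, 4 of 19 other homologous recombination genes fell, among them Rad51ap1, a cofactor of strand invasion (-0.32 ± 0.07), and Gen1, a resolvase (-0.27 ± 0.08). Of 16 other Fanconi and checkpoint genes 4 fell, among them Ube2t, the conjugating enzyme for the ID2 complex (-0.38 ± 0.09), and Clspn, the CHK1 adaptor (-0.36 ± 0.09). Of 14 end joining and end protection genes 1 fell (Shld2, -0.17 ± 0.05), and of 14 other base excision genes none did, with 3 lower and 1 higher at unadjusted p under 0.05. Of 14 mismatch and nucleotide excision genes, those that fell included Msh6 (-0.19 ± 0.04) and Pms2 (-0.21 ± 0.05), and the number called is not given here.

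Promoters were examined because 11 members fell together with ICB. RefSeq windows of 300 bases on GRCm38.p6, from 250 bases before a transcription start to 50 bases into the transcript, were found for 32 members, as 38 windows. E2F-type letters were searched on both strands in 4 forms, namely TTCCCGC and also TTGGCGC and also TTCGCGC and also TTGCCGC. Read on the other strand, TTGGCGC ends in CCAA and can share bases with the CCAAT letters below. E2F-type letters stood in 21 of the 38 (55.3%), against 14.8% of 15888 windows of genes tested and 9.57% of all 32851. They stood in 8 of 10 windows of members lower with ICB and in 13 of 28 windows of the others. The 10 windows covered 8 of the 11 lower members, with Rad51c and Rad54l counted more than once, and the 28 covered 24 members. No Rad54l window held the letters. The split followed calls made on these same data and is not a separate test. In 25 windows of the replication genes the share was 56.0%. The letters CCAAT stood in 52.6% of member windows, 76.0% of replication gene windows, 37.2% of windows of genes tested and 37.4% of all. The letters TTTGAA or TTCGAA, as in cell cycle homology regions, stood in 15.8% of member windows, 40.0% of replication gene windows, 14.6% of windows of genes tested and 19.2% of all. A match is a description of letters, not a bound site, and base composition was not matched. The windows below, chosen after their values were seen, show Rad51c, Fanci, Polq and Bard1, which were lower with ICB, and Brca1, which was not called; capitals mark the E2F-type letters, and each sequence is read along the gene's own strand.
Rad51c, chr11:87404905-87405204, minus strand: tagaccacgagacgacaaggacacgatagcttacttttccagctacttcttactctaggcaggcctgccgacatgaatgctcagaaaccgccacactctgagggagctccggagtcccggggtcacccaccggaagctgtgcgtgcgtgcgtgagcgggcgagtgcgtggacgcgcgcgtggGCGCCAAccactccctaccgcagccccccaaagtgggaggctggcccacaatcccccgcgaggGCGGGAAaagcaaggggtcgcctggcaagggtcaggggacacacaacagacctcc
Fanci, chr7:79392088-79392387, plus strand: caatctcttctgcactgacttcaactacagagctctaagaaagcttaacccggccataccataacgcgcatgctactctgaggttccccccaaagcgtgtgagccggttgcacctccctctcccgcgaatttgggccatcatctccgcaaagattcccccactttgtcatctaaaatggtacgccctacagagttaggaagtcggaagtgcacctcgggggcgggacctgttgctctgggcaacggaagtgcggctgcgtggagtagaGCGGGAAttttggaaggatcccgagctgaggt
Polq, chr16:37011536-37011835, plus strand: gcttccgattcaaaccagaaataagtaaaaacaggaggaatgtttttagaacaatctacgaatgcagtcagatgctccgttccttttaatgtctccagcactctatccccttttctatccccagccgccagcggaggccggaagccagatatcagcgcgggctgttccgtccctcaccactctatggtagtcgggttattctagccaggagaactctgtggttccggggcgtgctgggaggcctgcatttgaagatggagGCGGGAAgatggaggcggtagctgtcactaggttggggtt
Bard1, chr1:71102923-71103222, minus strand: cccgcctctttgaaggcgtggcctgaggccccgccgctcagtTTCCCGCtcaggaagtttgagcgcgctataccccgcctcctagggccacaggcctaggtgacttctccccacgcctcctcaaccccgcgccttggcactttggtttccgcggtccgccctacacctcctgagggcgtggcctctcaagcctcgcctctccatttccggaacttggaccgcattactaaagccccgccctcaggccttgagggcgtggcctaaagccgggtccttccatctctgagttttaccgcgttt
Brca1, chr11:101551906-101552205, minus strand: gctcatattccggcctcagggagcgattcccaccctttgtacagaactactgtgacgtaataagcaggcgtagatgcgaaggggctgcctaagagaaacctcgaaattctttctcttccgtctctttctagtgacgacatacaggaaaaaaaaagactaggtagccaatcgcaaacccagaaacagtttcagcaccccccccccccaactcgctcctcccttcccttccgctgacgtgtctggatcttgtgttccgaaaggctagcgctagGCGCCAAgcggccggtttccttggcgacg
In this Rad51c window, 1 of 2, the matches began at -68 and -5 from the start site, in Fanci at 19, in Polq at 11, in Bard1 at -208 and in Brca1 at 22, where 1 is the first transcribed base.

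Olaparib was compared with its absence in 2 pairs, PARPi against control and PARPi+ICB against ICB, and as their average. In the average 2 of 41 members rose and none fell, where 5.1% of genes were called, 3.49% higher and 1.61% lower. Fen1, which trims flaps in long-patch base excision and lagging strand synthesis, had 34.8, 32.3 and 30.6 CPM in PARPi tumours, against 28.6, 26.5 and 27.6 CPM in control tumours. It had 33.6, 26.8 and 28.6 CPM in PARPi+ICB tumours, against 24.2, 25.5 and 25.7 CPM in ICB tumours. Both pairs were apart, and the averaged change was 0.24 ± 0.07 (adjusted p = 0.0438 by edgeR).
Dna2, a nuclease and helicase of long-range resection, had 12.6, 12.5 and 13.8 CPM in PARPi tumours, against 10.5, 10.3 and 10.7 CPM in control tumours. It had 14.0, 10.9 and 10.9 CPM in PARPi+ICB tumours, against 10.2, 11.1 and 9.35 CPM in ICB tumours, where the groups overlapped. The averaged change was 0.27 ± 0.07 (adjusted p = 0.0461 by edgeR). Over all members 28 changes were positive and the median was 0.06, against -0.01 over all genes; 20 of 41 (48.8%) were positive in both pairs and 10 (24.4%) negative in both, against 30.3% and 34.3% of all genes. Other members of base excision and resection had changes of 0.17 ± 0.06 (Lig1) and -0.15 ± 0.06 (Mre11a), neither called.
Of the replication genes 4 of 28 rose and all 28 had positive changes, with a median of 0.24; Plk1, a mitotic kinase, had 0.53 ± 0.10 and Rrm2, of ribonucleotide reductase, 0.36 ± 0.09. T cell markers rose in 7 of 10 and plasma cell markers in 8 of 8, epithelial markers fell in 3 of 9, and the part of these lists was not tested. Of the 77 other repair genes none passed the test by edgeR, and by list 0 to 2 were higher and 0 to 4 lower at unadjusted p under 0.05. Both calls were borderline: no call was left without the filter on low counts, and leaving out single libraries gave 0 to 3 (0 without any 1 control tumour, PARPi replicate 1 or 2, ICB replicate 1, or PARPi+ICB replicate 1 or 3, and 1 without PARPi replicate 3 or ICB replicate 2).
Each pair alone called no member by edgeR, DESeq2 or limma: PARPi against control called 0.0661% of genes, with 6 members higher at unadjusted p under 0.05, and PARPi+ICB against ICB called 0.871%, with 7 higher.

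The combinations were compared with control tumours, and these comparisons share the 3 control libraries with each other and with those above. PARPi+aVEGFA against control gave 6 members higher and none lower, 14.6% of 41, where 17.8% of genes were called, 9.99% higher and 7.8% lower. The 6 were Dna2, Fen1, Rad51c, Fanci, Fancd2 and Fancf. Dna2 had 15.0, 13.2, 12.8 and 14.2 CPM in PARPi+aVEGFA tumours, against 10.5, 10.3 and 10.7 CPM in control tumours, a change of 0.40 ± 0.10 (adjusted p = 0.0104 by edgeR). Fen1 had 30.8, 34.3, 34.1 and 35.0 CPM, against 28.6, 26.5 and 27.6 CPM in control tumours, a change of 0.28 ± 0.09 (adjusted p = 0.0332 by edgeR). The groups were apart for all 6 genes, which the test had picked on the same libraries. Of the 41 members, 10 lay above all control tumours, 2 lay below and 29 overlapped. The share of all genes set apart in this way was not counted.
Rad51c changed by 0.50 ± 0.15, Fanci by 0.41 ± 0.14 and Fancd2 by 0.45 ± 0.15 (adjusted p = 0.0268, 0.0437 and 0.0479 by edgeR). Fancf, an adaptor of the core complex, had 0.560, 0.589, 0.510 and 0.491 CPM in PARPi+aVEGFA tumours, against 0.157, 0.235 and 0.231 CPM in control tumours (change 1.36 ± 0.36, adjusted p = 0.0146 by edgeR). It is overlapped on the opposite strand by Gas2, and the strand setting of the counts is not given in the sources used here, so these few reads cannot be assigned to Fancf with certainty. Of these 6 calls, 2 were made without the acinar libraries. Leaving out control replicate 1 gave 1 call, and leaving out PARPi+aVEGFA replicate 3 or 4, or another control tumour, gave 2.
Of the replication genes 4 of 28 rose and 27 had positive changes. T cell markers rose in 10 of 10, plasma cell markers in 8 of 8, macrophage markers in 6 of 8 and fibroblast markers in 5 of 7, and epithelial markers fell in 6 of 9. The summed quality RNAs were 46.5 to 62.3 CPM in PARPi+aVEGFA tumours against 150 to 154 CPM in control tumours. The part of these RNAs was not tested. Of 19 other homologous recombination genes 2 rose, Gen1 by 0.55 ± 0.13 and Rmi2, of the dissolvase complex, by 0.55 ± 0.18, and 1 fell (Helq, -0.32 ± 0.08). Of 14 end joining genes 1 fell (Trp53bp1, -0.36 ± 0.08), as did 1 of 14 other base excision genes (Aptx, -0.31 ± 0.07). None of 16 other Fanconi and checkpoint genes passed the test by edgeR, with 2 higher and 1 lower at unadjusted p under 0.05.

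The full combination against control gave 1 member higher and 3 lower, 9.76% of 41, where 24.2% of genes were called, 12.6% higher and 11.5% lower. Atm, the kinase that signals double-strand breaks, had 25.0, 18.8, 21.1 and 25.6 CPM in the full combination, against 27.0, 39.3 and 34.6 CPM in control tumours, a change of -0.57 ± 0.16 (adjusted p = 0.0173 by edgeR). Lig3, the ligase of single-strand break repair and a backup of end joining, had 54.6, 48.3, 55.1 and 54.0 CPM in the full combination, against 58.2, 62.1 and 61.6 CPM in control tumours (-0.19 ± 0.06, adjusted p = 0.0355 by edgeR). Mre11a, the nuclease of the MRN complex, had 51.9, 43.6, 46.3 and 52.3 CPM in the full combination, against 56.4, 56.5 and 59.8 CPM in control tumours (-0.25 ± 0.08, adjusted p = 0.0408 by edgeR). Fancf had 0.519, 0.250, 0.744 and 0.586 CPM, against 0.157, 0.235 and 0.231 CPM in control tumours (1.33 ± 0.36, adjusted p = 0.0129 by edgeR). The groups were apart in CPM for the 4 genes, which the test had picked on the same libraries. For Fancf this rested on library size: full combination replicate 2 had 7 counts, as did control replicates 2 and 3. Of the 41 members, 4 lay above all control tumours, 4 lay below and 33 overlapped. The share over all genes was not counted here either. There were 2 calls without the acinar libraries or without control replicate 1. Leaving out full combination replicate 2, or another control tumour, gave 1 call.
Among other repair genes, 3 of 14 end joining genes fell (Trp53bp1, Xrcc6 and Prkdc, -0.23 to -0.40). So did 1 of 19 other homologous recombination genes (Helq) and 1 of 16 other Fanconi and checkpoint genes (Fan1). Of 14 mismatch and nucleotide excision genes, those that fell included Msh6 (-0.25 ± 0.06), Xpc (-0.21 ± 0.07) and Pms2 (-0.25 ± 0.08). The number called in that list is not given here. Of 14 other base excision genes 1 rose (Neil1, 0.50 ± 0.16). All 10 T cell markers and all 8 plasma cell markers rose, as did 7 of 8 macrophage markers and 6 of 7 fibroblast markers, and 5 of 9 epithelial markers fell with 1 higher. Fibroblast markers summed to 4123 to 5061 CPM in the full combination against 2685 to 2971 CPM in control tumours, and macrophage markers to 1739 to 2137 CPM against 1113 to 1253 CPM in control tumours. The part of these RNAs was not tested. PARPi+ICB against control called no member by edgeR, DESeq2 or limma, where 16.1% of genes were called; 1 was higher and 6 lower at unadjusted p under 0.05, and the smallest adjusted p was 0.0599, for Fancf.

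**Figure D5:**
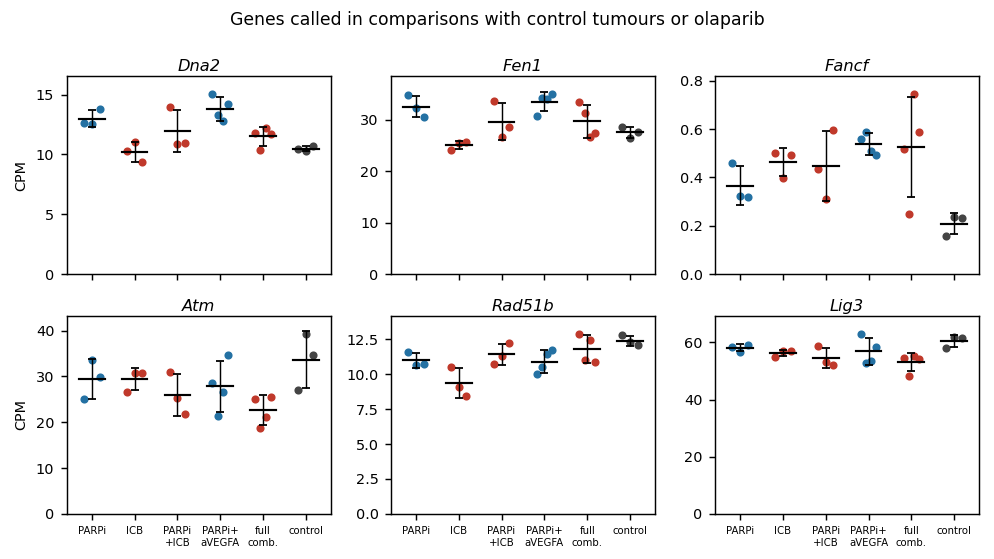
Panels show CPM in each tumour for 6 repair genes called with olaparib or in a comparison with control tumours, by group with control at the right; points are tumours, coloured as in the panels of ICB genes, and bars are means with SD. Dna2 lies at 12.8 to 15.0 CPM in PARPi+aVEGFA tumours, against 10.3 to 10.7 CPM in control tumours, and Fancf stays under 1 CPM in every tumour.

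Anti-VEGFA was tested only on top of olaparib, by 3 comparisons, and no member was called by edgeR or limma in any of them. On average over ICB status 0.0331% of genes were called. The member with the smallest p was Rad51c, at 0.47 ± 0.11 (adjusted p = 0.0949 by edgeR; called by DESeq2), and it was the only member at unadjusted p under 0.05. It had 3.93, 4.64, 3.69 and 3.90 CPM in the full combination, against 3.02, 2.50 and 2.12 CPM in PARPi+ICB tumours, which did not overlap (0.66 ± 0.15, adjusted p = 0.999 by edgeR, in a comparison that called 0% of genes). PARPi+aVEGFA against PARPi called 0.573% of genes, and there Rad51c had a log2 fold change of 0.27 ± 0.15 with overlapping groups. Over the 41 members the averaged median was 0.02, with 27 positive and 14 negative changes.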

How the data were processed

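RNA of 20 tumours in 6 groups was analysed. Per the submitters' processing notes, reads were aligned to GRCm38 with STAR and counted with HTSeq; versions and strand setting are not given in the sources used here. The deposited count table holds whole-number counts per Ensembl gene as the authors left them, not normalized. A second deposited table holds log2 of RPKM with 1 added, which the authors named for coding sequence; checked on the values, its lengths match the gene span with introns (99.7% of 11701 genes within 5% after scaling), so it served only as an alternative.

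Counts were tested in R 4.3.3 with edgeR 4.0.16 (filterByExpr with minimum count 10 and total 15, TMM factors of 0.958 to 1.03, 1 coefficient per group, quasi-likelihood F test) in 13 contrasts over 20 libraries, with Benjamini-Hochberg adjustment over 18144 genes in each and calls at an adjusted p under 0.05. SE is the log2 fold change divided by the root of F. Effective library sizes entered CPM, correlations used log2 CPM with a prior count of 2, and exon lengths and symbols came from GENCODE M21 (55141 identifiers matched). Of 14 members overlapped by another protein-coding gene, 1 (Rad54b) shares its strand. Among members called in a comparison, Rad54l, Fanci, Fancd2, Fen1, Lig3, Mre11a and Fancf are overlapped on the opposite strand. Libraries of a group differed beyond counting noise (chi-squared per degree of freedom 19.7 to 144), so none was the same library sequenced again. This check cannot detect a second library made from the same tumour. Titles give 1 mouse per library. On simulated counts for the averaged ICB contrast (17849 genes), 44% of genes changed 1.25-fold and 97% of those changed 2-fold were recovered, with 2.08% false calls. The changed genes, 100 at each size, averaged 2 CPM or more, so recovery was not measured for Fancf, under 1 CPM. In the data 14.1% of genes were called in this contrast, a larger share than was changed in the simulation.

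The 41 members and all lists were chosen with earlier results of these data known. Any member could be named, and from each other list the up to 4 genes with the smallest p in a contrast, besides Mki67, Top2a and the quality RNAs; Trp53 was added as the other deleted gene. The list genes Hrob and Shld3 had no match. Alternatives were DESeq2 1.42.0 size factors and Wald test, no filter, a replicate block, separate fits for each comparison's own groups, limma 3.58.1 on the log2 RPKM values and each library left out; leaving out the 4 libraries with acinar RNA was added after seeing the data. Some items of the lists are not reported here.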

Additional observations from a re-analysis of the deposited data

Results flagged for a closer look

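In the 2 groups of 4 tumours, each of the 41 members was examined for a library far from the other 3, and 3 of 82 member and group pairs (3.66%) stood out by Dixon's test; chance gives about 1 in 20. Rad50 was 59.4 CPM in full combination replicate 2, against 74.4 to 77.2 CPM in the other 3 tumours of that group. Lig3 was 48.3 CPM in the same tumour, against 54.0 to 55.1 CPM in the others. That library also held 4457 summed CPM of acinar RNA, whose part was not tested. Chek2 was 20.7 CPM in PARPi+aVEGFA replicate 4, against 18.5 to 18.9 CPM in the other 3 tumours, and that library held 867 summed CPM of acinar RNA.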

How the results depend on the processing

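No member called in a comparison changed direction there under the alternatives run. Over members called in a comparison, 349 member and alternative pairs stayed called and 128 did not; over those not called that were followed, 31 became called. The averaged ICB count of 11 was 9 to 14 over the settings and 7 to 17 on leaving out single libraries (7 without ICB replicate 1 or PARPi+ICB replicate 3, 17 without PARPi+ICB replicate 1). ICB against control (1 call) gave 0 with no filter, the compared groups alone, limma or without the acinar libraries, and 0 to 1 without single libraries. PARPi+aVEGFA against control (6) gave 3 with no filter, 2 without the acinar libraries and 1 to 4 without single libraries. The full combination against control (4) gave 2 with no filter, 1 with the compared groups alone, 2 without the acinar libraries and 1 to 4 without single libraries. The olaparib average (2) gave 0 with no filter, 1 with the compared groups alone and 0 to 3 without single libraries. DESeq2's Wald test gave 1 in ICB added to PARPi, in ICB added to PARPi+aVEGFA and in the anti-VEGFA average, each 0 by edgeR. PARPi+ICB against control (1 without PARPi+ICB replicate 1 or 2) and ICB added to PARPi (1 without PARPi+ICB replicate 1) gave 0 to 1 without single libraries. The cause of these shifts was not tested. Replicate numbers did not pair the libraries (46 same-numbered pairs, r of -0.22 to 0.17, 4 over 0.1); with the number as a replicate block, ICB against control gave 0, PARPi+aVEGFA against control 3, the olaparib average 0 and the ICB average 10. Depth limits Fancf most, at 5 to 23 counts per library.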
